A study of Sus scrofa with 2 samples.

Results

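The miRNAs described here come from the imprinted DLK1-DIO3 region, and were compared between sexually immature and sexually mature pig testis. The list holds 43 miRNAs, taken by name from the 1124 miRNA names found in the deposited small RNA data, and 36 of the 43 were given at least 1 sequenced tag. For 33 of them a tag aligned to the miRNA's own reference entry without a gap and within 3 mismatches. Samples were whole testes of the pig breed Junmu-1, which the labels call white and indigenous to China. Each library was made from the pooled RNA of 3 boars, aged 30 days (immature) or 180 days (mature), and the labels name no treatment or genotype at either age. There was 1 library per age, so no difference below has a replicate check or a p-value. Every interval is an exact 95% interval that covers counting error only, and reads amplified by PCR without molecular identifiers are not independent molecules.

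In this region of eutherian mammals the protein-coding genes DLK1, RTL1 and DIO3 are expressed from the paternal chromosome, and a series of non-coding RNAs, which hold the miRNAs, from the maternal chromosome. A first group of miRNAs (miR-127, miR-136, miR-431, miR-432 and miR-433) lies antisense to RTL1, so these miRNAs are fully complementary to the RTL1 transcript. A second and much larger group, from miR-379 to miR-656, lies in introns of a downstream non-coding RNA, and many of its hairpins arose by duplication of a common ancestor. Both groups are well known from brain and from embryonic and placental tissue. In RefSeq's pig annotation (Sscrofa11.1) 7 of the 43 miRNAs had a gene, and those of miR-127, miR-432 and miR-136 lay within RTL1. The genome build behind the deposited tags is not given in the sources used here, so no coordinates are printed.

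The sequences of the 6 most read arms, and of 2 others with outlying ratios, show which molecules carry the result. An arm is the strand cut from the 5′ (5p) or 3′ (3p) side of the hairpin. Each sequence is the most read tag that aligned to the miRNA's own reference entry without a gap, written 5′ to 3′ as DNA letters as deposited, with the seed (bases 2 to 8, the main determinant of target pairing) in capitals.
miR-127-3p: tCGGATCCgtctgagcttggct
miR-432-5p: tCTTGGAGtaggtcattgggt
miR-379-5p: tGGTAGACtgtggaacgtagg
miR-411-5p: tAGTAGACcgtatagcgtacg
miR-376c-3p: aACATAGAggaaattccacgt
miR-485-5p: aGAGGCTGgccgtgatgaattcg
miR-485-3p: gTCATACAcggctctcctctct
miR-409-5p: aGGTTACCcgagcaactttgcat
These 8 arms have 8 different seeds, although those of the neighbouring miR-379-5p (GGTAGAC) and miR-411-5p (AGTAGAC) differ only in their first base. Of the 28 arms with enough reads to be compared, only miR-379-3p and miR-411-3p had the same seed (ATGTAAC).

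The 30-day list held 7525725 miRNA-matched reads in 82288 tags and the 180-day list 852209 reads in 28643 tags. Levels are given as RPM, the reads per 1000000 of these miRNA-matched reads, so 3 reads correspond to 0.399 RPM at 30 days and to 3.52 RPM at 180 days. All 18 marker miRNAs of the testis and of other cell types were listed in both libraries. The 5 miRNAs of meiotic and later germ cells (miR-34b, miR-34c and miR-449a to c) went from 11.7 to 35280 RPM in sum. The 2 mesenchymal miRNAs (miR-199a and miR-214) went from 62151 to 40404 RPM, a ratio of 0.650, and gonadal miR-202 from 68481 to 110872 RPM. Smooth muscle miRNAs (miR-143 and miR-145) went from 6581 to 17994 RPM in sum. Red blood cell miRNAs (miR-451 and miR-144) went from 1633 to 3857 RPM in sum. Within that sum miR-451 went from 1535 to 3774 RPM, but miR-144 from 97.7 to 83.3 RPM. The sum of striated muscle miRNAs (miR-1, miR-133a and miR-206) went from 1432 to 6550 RPM. Of these, miR-1 went from 1305 to 6399 RPM, miR-133a from 5.98 to 28.2 RPM and miR-206 from 121 to 123 RPM. Endothelial miR-126 had a ratio of 1.65. Of the nervous tissue miRNAs, miR-9 went from 2.39 to 144 RPM and miR-124 from 8.11 to 11.7 RPM. The ratio of miR-124 was 1.45 (0.661 to 2.85). The part of these shifts in the results below was not tested, and in bulk tissue fewer cells of a type and less RNA per cell cannot be told apart.

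As a whole the region was a minor component of both libraries and was lower in the mature testis. Its miRNAs had 7661 reads at 30 days, or 1018 RPM, and 266 reads at 180 days, or 312 RPM. At an equal share 868 reads would have been counted at 180 days. The summed level was thus 3.26-fold lower (2.89 to 3.70) in the 180-day library, going from 0.102% to 0.0312% of miRNA reads. Without miR-127, the most read miRNA of the list, the ratio of the sum was 0.332, against 0.307 with it.

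Separate arms gave the same picture. Reads fell on 51 arms, of which 28 arms of 21 miRNAs had the 20 or more reads over both libraries needed for a comparison. An arm was called lower when its 180-day over 30-day ratio was 0.5 or less and the interval excluded 1, and higher when the ratio was 2 or more and the interval excluded 1. Of the 28 arms 17 were lower, 0 higher and 11 neither, and 27 had a ratio below 1. Over all 449 arms measured in the 2 libraries, 10.9% were lower and 30.3% higher, and 40.8% had a ratio below 1. The median log2 ratio was −1.63 for the region's arms and 0.25 for all arms. Scaling changes the background: with TMM scaling, which lowered every log2 ratio by 0.95, 34.1% of all arms were lower and 14.7% higher, against 23 and 0 of the region's 28 arms. With median-of-ratios scaling, a shift of −0.26, the background was 17.4% lower and 25.2% higher, against 18 and 0 of the 28. Per read of the whole library, using the lowest totals compatible with the tag numbers, 84.2% of all arms were lower and 5.57% higher, against 28 and 0 of the 28, after a shift of −3.06 for every arm. At that total, miRNA-matched reads made up 59.2% of the 30-day library and 7.08% of the 180-day library.

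**Figure D1:**
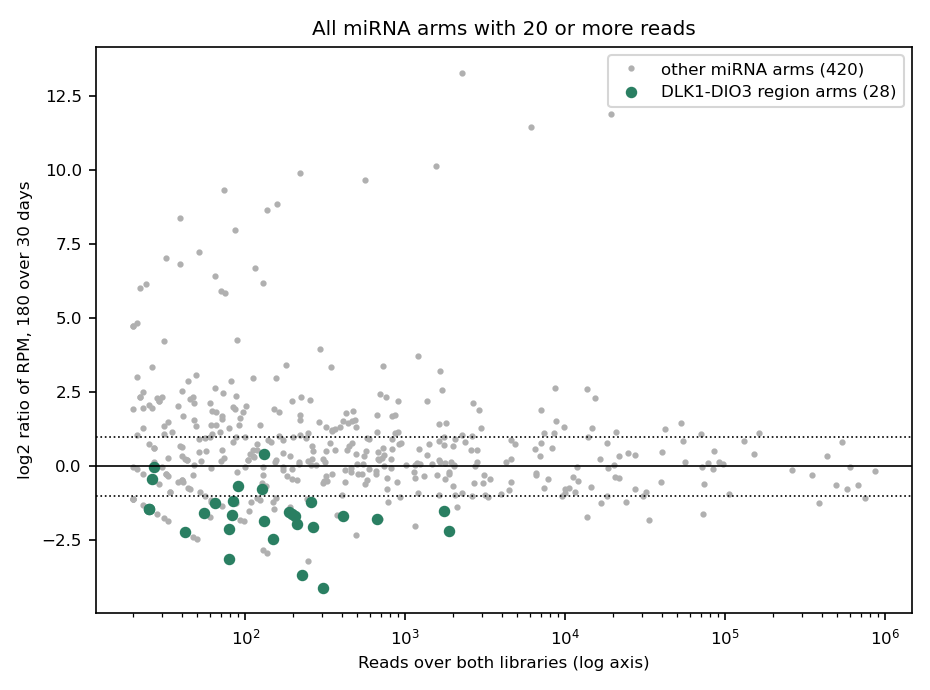
The log2 ratio of RPM (180 over 30 days) is plotted against the reads of both libraries together (log axis) for miRNA arms with 20 or more reads, with dotted lines at 2-fold; 1 other arm whose ratio could not be bounded is not drawn. The 28 region arms (green) lie below 0 in 27 cases, while the other arms (grey) lie mostly above 0.

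The RTL1-antisense group was carried by miR-127-3p. The 5 miRNAs of the group had 2101 reads at 30 days (279 RPM) and 51 at 180 days (59.8 RPM), 4.67-fold lower (3.53 to 6.29). miR-127-3p itself had 1839 reads (244 RPM) and 46 reads (54.0 RPM). It was the most read arm of the region at 30 days and the second after miR-411-5p at 180 days. Its ratio was 4.53-fold lower (3.38 to 6.21) at 180 days. miR-432-5p, from the same antisense transcript, had 224 reads (29.8 RPM) and 2 reads (2.35 RPM). This was 12.7-fold lower, with a wide interval (3.47 to 105) since only 2 reads remained where 25.4 would be an equal share. The passenger strand miR-127-5p had 24 and 2 reads, a ratio of 0.736 (0.0843 to 2.96) that was not called. miR-136-5p (6 and 0 reads), miR-136-3p (8 and 0) and miR-433-3p (0 and 1) were too rare to compare, and miR-431 had no tag.

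The miR-379 to miR-656 cluster held most of the region's reads. Its 34 miRNAs, 29 of which had reads, went from 5534 reads (735 RPM) to 215 reads (252 RPM), 2.91-fold lower (2.54 to 3.36). Of its 25 measured arms 15 were lower and none higher, the background again being 10.9% lower and 30.3% higher. miR-411-5p, near the start of the cluster, had 1682 reads (224 RPM) and 66 reads (77.4 RPM), 2.89-fold lower (2.26 to 3.75). Its neighbour miR-379-5p, which gives the cluster its usual name, had 394 and 14 reads (52.4 and 16.4 RPM), 3.19-fold lower (1.88 to 5.88). In the same stretch miR-299-3p had 203 and 6 reads, 3.83-fold lower (1.73 to 10.6). Its opposite strand miR-299-5p had 77 and 2 reads, 4.36-fold lower (1.17 to 36.6). miR-380-3p had 126 and 4 reads and was 3.57-fold lower (1.36 to 13.3). Thus both strands of miR-299 and the leading strands of its neighbours were on the same side. miR-323-3p had 198 and 7 reads, a ratio of 0.312 (0.124 to 0.655) that was called lower. miR-329-3p had 53 and 2 reads, a ratio of 0.333 (0.0393 to 1.26) that was not called.

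**Figure D2:**
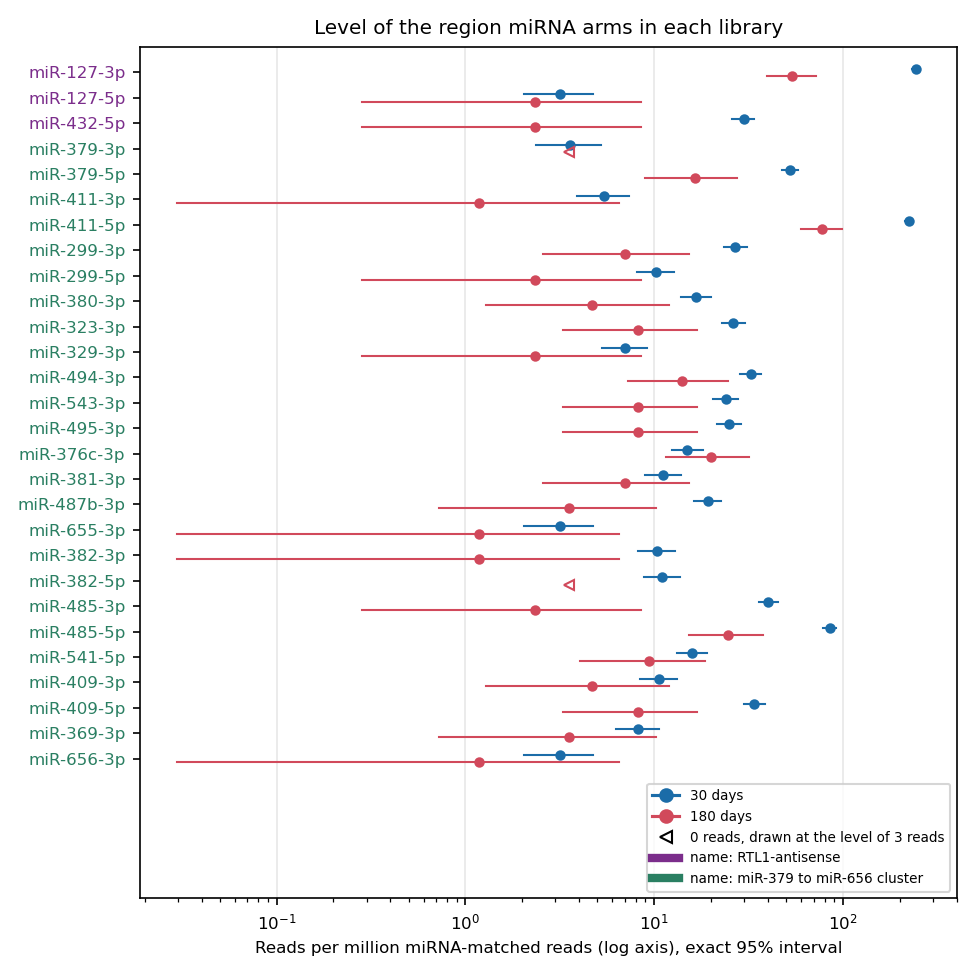
Levels of the 28 measured arms in the 30-day (blue) and 180-day (red) library are drawn in RPM on a log axis with exact 95% intervals, in the gene order known from human, with open triangles for 0 reads placed at the level of 3 reads. miR-127-3p and miR-411-5p stand highest at both ages, and the 180-day point lies to the right of the 30-day point only for miR-376c-3p.

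In the middle of the cluster some arms were lower and others were not called. miR-494-3p had 244 and 12 reads (32.4 and 14.1 RPM), 2.30-fold lower (1.29 to 4.52). miR-495-3p had 188 and 7 reads, 3.04-fold lower (1.45 to 7.67). miR-487b-3p had 145 and 3 reads, 5.47-fold lower (1.84 to 26.8). In contrast miR-376c-3p, of the miR-376 family known for edited precursors, had 113 and 17 reads, which is 15.0 RPM at 30 days and 19.9 RPM at 180 days. Its ratio of 1.33 (0.748 to 2.22) was the only measured one above 1, although with TMM scaling it was 0.690 (0.388 to 1.15) and per read of the whole library 0.159. Of the 11 arms that were not called, it was also the only one whose interval lay above 0.5. Relative to the rest of the cluster, a comparison that no scaling affects, miR-376c-3p was 4.12-fold (2.27 to 7.05) more abundant at 180 than at 30 days. miR-376c-3p was singled out after its values were seen. Among related miRNAs, miR-376b-3p had 12 and 1 reads and miR-376a-3p 3 and 0, too few to compare. The tag that held the 3 miR-376a-3p reads differed from the miR-376a entry at C19T (entry base, position from the 5′ end, tag base) and was identical over its 19 bases to the most read tag of miR-376b-3p. miR-381-3p had 84 and 6 reads, a ratio of 0.631 (0.225 to 1.43) that was not called.

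Towards the far end lay miR-382, miR-485, miR-541, miR-409 and miR-369. miR-485-5p, known from neurons, had 640 reads (85.0 RPM) and 21 reads (24.6 RPM), 3.45-fold lower (2.24 to 5.61). Its other strand miR-485-3p had 303 and 2 reads (40.3 and 2.35 RPM), 17.2-fold lower (4.71 to 142). The ratios of both strands of this hairpin therefore differed in these libraries, but that of miR-485-3p rests on 2 reads at 180 days. Of these, 1 did not align to its entry without a gap and within 3 mismatches. miR-382-5p had 83 and 0 reads and was at least 3.13-fold lower, taking 3 reads as the floor for a count of 0, and its ratio had an exact interval of 0 to 0.401. miR-382-3p had 78 and 1 reads, 8.83-fold lower (1.54 to 353). miR-409-5p had 256 and 7 reads, 4.14-fold lower (1.98 to 10.4), whereas miR-409-3p had 80 and 4 reads and was not called (ratio 0.442, 0.117 to 1.18). The ratios of miR-541-5p (120 and 8 reads; 0.589, 0.248 to 1.20) and miR-369-3p (62 and 3 reads; 0.427, 0.0858 to 1.31) were not called either. miR-655-3p and miR-656-3p each had 24 and 1 reads, with a ratio of 0.368 (0.00895 to 2.26).

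**Figure D3:**
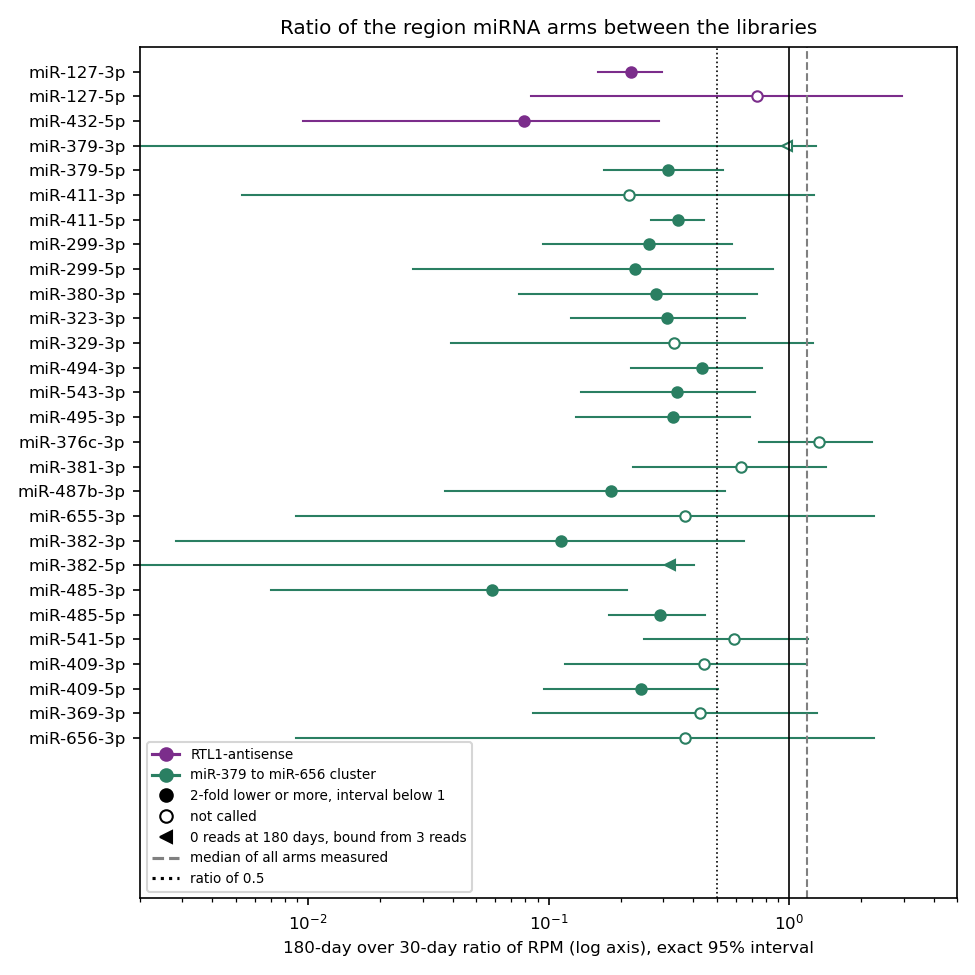
The 180-day over 30-day ratio of each measured arm is drawn on a log axis with its exact 95% interval, in purple for the RTL1-antisense group and green for the cluster; filled symbols are arms called lower and triangles are bounds from a floor of 3 reads. The 17 filled symbols lie left of the dotted line at 0.5, and miR-376c-3p lies right of 1.

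Not every arm's interval included the region's summed ratio. For 24 of the 28 the interval included that ratio of 0.307. The 4 others were miR-127-3p, miR-432-5p and miR-485-3p below it and miR-376c-3p above it. The upper limits of miR-127-3p (0.296) and miR-432-5p (0.288) lay only just below it. The intervals are not corrected for the 28 comparisons, of which some would miss by counting error alone, and the sum includes the arms themselves. Low depth limits this comparison: 17 measured arms had 3 or more reads at 180 days and 6 had 10 or more. With a minimum of 100 reads over both libraries, 14 of 16 arms were lower and 0 were higher, against 13.7% and 25.1% of all 307 arms at that depth. With a fold of 1.5 in place of 2, 17 of the 28 were lower and 0 higher, against 17.1% and 37.4% of all arms.

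The RTL1-antisense group was lower relative to the cluster in the 180-day library than in the 30-day library. Its share of the reads of both groups together went from 27.5% (26.5 to 28.5%) to 19.2% (14.6 to 24.4%), and the ratio of the 2 groups' ratios was 0.625 (0.449 to 0.855). This compares 2 libraries and not 2 ages. Perfectly matching tags have no mismatched and no unmatched base in the deposited alignment, so tags shorter or longer than their entry are left out. They held 345 and 11 RTL1-antisense reads and 2622 and 95 cluster reads. Of the RTL1-antisense reads, 336 and 9 were miR-127-3p and 1 and 0 were miR-432-5p. Among these tags only, the value between the groups was 0.880 (0.421 to 1.67). That interval includes both 1 and the value from all tags. Without miR-127 and miR-411, the most read miRNA of each group, it was 0.325 (0.0657 to 0.979), from 238 and 3 remaining RTL1-antisense reads. The miRNAs that lie before RTL1 (miR-493 and miR-665, with no tag of miR-337) had 12 and 0 reads, 8 and 0 of them aligned to their own entry, and miR-370, from a region between both groups, had 14 and 0 reads. Neither count allows a fold change to be stated.

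Other listed miRNAs were rare or absent from these lists. Besides miR-337 and miR-431, no tag carried the name of miR-539, miR-889, miR-544, miR-668 or miR-412. Of the arms, 23 had 1 to 18 reads in all. They include miR-410-3p (10 and 0 reads), with which the cluster ends in many descriptions, miR-377-5p (15 and 0), miR-377-3p (3 and 0), miR-369-5p (16 and 2), miR-380-5p (16 and 1), miR-323-5p (11 and 0), miR-758-3p (6 and 0), miR-496-3p (5 and 1), miR-376c-5p (4 and 0), miR-541-3p (4 and 0), miR-487a-3p (1 and 0), miR-493-5p (5 and 0), miR-493-3p (3 and 0) and miR-154-3p (0 and 2). The name miR-134, a miRNA of neuronal dendrites, was given to 2 and 6 reads, a ratio of 26.5 (4.74 to 268). None of these 8 reads aligned to the miR-134 entry without a gap and within 3 mismatches, so they are no measure of miR-134. With a minimum of 1 read it would be the only arm of 51 called higher, beside 17 lower, where 13.9% of all 1376 arms were higher and 3.56% lower. The same held for the 4 reads named miR-665 and the single read named miR-654.

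For miR-543 the deposited name joined 2 different sequences, shown here since they gave different ratios. The first has its seed in capitals, and the second did not align to the entry without a gap.
miR-543-3p: aAACATTCgcggtgcacttctt
other tag named miR-543: aaaaatacgggtgcacttctat
Under the deposited name miR-543-3p had 180 and 7 reads, 2.91-fold lower (1.38 to 7.35). Reads aligned to the entry numbered 72 and 1, 8.15-fold lower (1.42 to 326). The other reads numbered 108 and 6, a ratio of 0.491 (0.176 to 1.10), and 63 and 6 of them were the tag printed above. Over all listed miRNAs such unaligned reads made up 2.11% of the reads in the first library and 6.02% in the second.

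Another pair could not be separated by sequence. The most read tags of miR-379-3p and miR-411-3p were identical over 21 bases.
miR-379-3p: tATGTAACacggtccactaact
miR-411-3p: tATGTAACacggtccactaac
Of the 27 reads named miR-379-3p at 30 days, 26 differed from the human miR-379-3p entry at T10C (entry base, position from the 5′ end, tag base), the base that the miR-411-3p entry has there. miR-379-3p had 27 and 0 reads and miR-411-3p 41 and 1, and neither was called lower. Counted together they had 68 and 1 reads and were 7.70-fold lower (1.34 to 309). Other differences from the human entry were also carried by nearly all reads of an arm. In miR-379-5p, 384 of 386 reads (99.5%) had A10G, and in miR-381-3p, 67 of 68 (98.5%) had G10A, both at 30 days and outside the seed.

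Which strand was kept differed between miRNAs of the region. At 30 days 15 of them had reads on both strands, and 12 of them had 50 or more reads. Of these, 5 had mostly the 5p arm, 6 mostly the 3p arm, and for miR-382 (51.6% on the 5p arm, 43.6 to 59.5%) the interval included 50%. miR-127 was at the extreme of the 3p side, with 98.7% (98.1 to 99.2%) of its reads on that arm. On the 5p side miR-411 had the highest share, with 97.6% (96.8 to 98.3%), followed by miR-541 with 96.8% (91.9 to 99.1%). The 3p reads of miR-411 and miR-379 could not be separated by sequence, so the place of miR-411 rests on the deposited names. For miR-485 the 3p share went from 32.1% (29.2 to 35.2%) at 30 days to 8.70% (1.07 to 28.04%) at 180 days. Relative to its 5p arm, miR-485-3p had a ratio of 0.201 (0.0227 to 0.833) between the libraries, which rests on 2 reads at 180 days.

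miR-411-5p occurred as 2 molecules whose starts differ by 1 base, and thus with 2 seeds, which are in capitals.
miR-411-5p, main start: tAGTAGACcgtatagcgtacg
miR-411-5p, earlier start: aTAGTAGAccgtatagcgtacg
At 30 days 1065 reads had the main start and 611 the earlier start, and at 180 days 27 and 39. The form that led at 30 days was therefore the rarer one at 180 days. The earlier start made up 36.5% (34.1 to 38.8%) and 59.1% (46.3 to 71.0%) of these reads, an odds ratio of 2.52 (1.49 to 4.32). The main start was 4.47-fold lower at 180 days (3.05 to 6.81). The earlier start had a ratio of 0.564 (0.397 to 0.780), below 1 but above the limit of 0.5 for a call. Of 201 arms with 50 or more reads in each library, the share of the main start moved by a median of 1.32 percentage points, and by as much as that of miR-411-5p (22.4 points) or more in 3, itself included. This comparison was chosen after its values were seen, and it was not matched for depth. miR-411-5p had 66 reads at 180 days, while many of the 201 arms had far more.

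**Figure D4:**
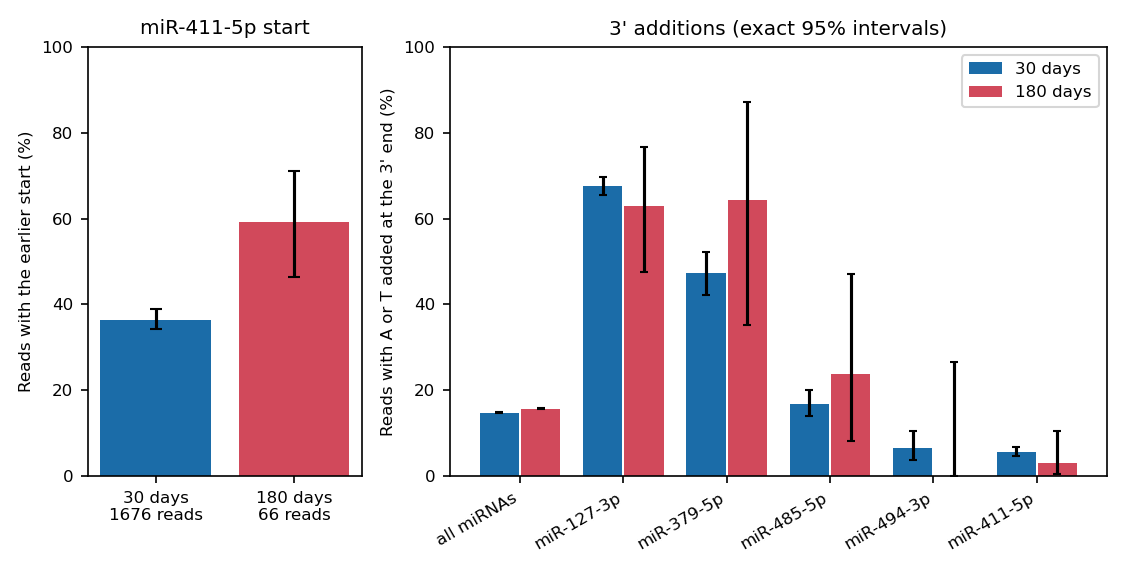
The left panel shows the share of miR-411-5p reads with the earlier start, 36.5% at 30 days and 59.1% at 180 days. The right panel shows, for all miRNAs and 5 arms, the share of reads ending in A or T after the last base that matches the arm's most read tag. Bars are single libraries (30 days blue, 180 days red) with exact 95% intervals; miR-127-3p stands highest at 30 days, with 67.6%.

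By the measure used here, miR-127-3p carried more A or T added at the 3′ end than any other miRNA arm read as deeply at 30 days. This raised the share for the region. An added base here is an A or T after the last base that matches the most read tag, extended by its entry where the entry is longer. It can replace a base of the entry as well as extend it, as in the 51 miR-127-3p reads at 30 days ending in GCA. An A or T that ends the most read tag itself is not counted, so an arm with such a tag can score low. The most read miR-494-3p tag, with 145 of 244 reads at 30 days, is its entry plus a T, and that arm scored 6.56%. The ranks below hold for this measure only. Whether the pig genome encodes added bases was not looked up. Such bases were on 28.5% (27.5 to 29.5%) of the region's reads at 30 days and 21.8% (16.99 to 27.26%) at 180 days, against 14.8% and 15.7% of all miRNA reads. For miR-127-3p the share was 67.6% (65.4 to 69.7%) and 63.0% (47.5 to 76.8%), and it held 1243 of the 2184 such reads of the region at 30 days. The cluster as a whole, with 15.2% (14.2 to 16.1%) at 30 days, was close to all miRNAs. miR-127-3p ranked first among the 231 arms with 200 or more reads at 30 days, whose median was 12.4%. miR-379-5p (47.2%) ranked 6 and miR-432-5p (41.5%) ranked 12. The property was not shared by all: miR-411-5p had 5.59% and miR-409-5p 2.73%, both below that median.

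The 4 most read ends of miR-127-3p show what this means, with the bases after the common part in capitals.
miR-127-3p, end 1: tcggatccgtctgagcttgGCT
miR-127-3p, end 2: tcggatccgtctgagcttgGCTAT
miR-127-3p, end 3: tcggatccgtctgagcttgGCAT
miR-127-3p, end 4: tcggatccgtctgagcttgGCTA
The first is the reference form and had 336 of 1742 reads with the main start at 30 days, or 19.3% (17.5 to 21.2%). The second had 273 (15.7%), the third 261 (15.0%) and the fourth 133 (7.63%). At 180 days the same ends had 9, 6, 7 and 4 of 43 reads. Of all miR-127-3p reads, 67.0% at 30 days and 76.1% at 180 days were 23 nucleotides or longer. Perfectly matching tags, as defined above, held 38.8% of the region's reads at 30 days and 39.8% at 180 days. Of all miRNA reads they held 63.6% and 59.4%. The remainder includes tags without a mismatch whose length differs from that of the entry. An example is the most read miR-432-5p tag, with 85 reads at 30 days.

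Bases read as G in place of A were looked for, since inosine, the product of RNA editing known for several precursors of this cluster, is read as G. Positions 2 to 15 of the measured arms held 116 A bases. A rule chosen after seeing the values (5 or more G reads, at least 5 times the C and T reads, and 1% or more) left 4 positions, all at 30 days and all in the seed. The most read G tag of each is shown with that base in capitals.
miR-376c-3p, A6G: aacatGgaggaaattccacgt
miR-381-3p, A4G: tatGcaaggacaagctctctgt
miR-411-5p, A5G: tagtGgaccgtatagcgtacg
miR-379-5p, A5G: tggtGgactgtggaacgtagg
Positions count from 1 at the 5′ end, and the first letter is the base of the most read tag. A6G was in 11 of 106 reads of miR-376c-3p (10.4%, 5.30 to 17.8%), and A4G in 6 of 68 reads of miR-381-3p (8.82%, 3.31 to 18.2%). A5G was in 35 of 1065 reads of miR-411-5p (3.29%, 2.30 to 4.54%) and in 5 of 386 reads of miR-379-5p (1.30%, 0.422 to 3.00%). At these positions C or T was read 3 times, each in miR-411-5p, a low count that the rule itself required. The earlier-start form of miR-411-5p, a separate set of reads, had G at the same base (A6G in its own numbering) in 15 of 611 reads (2.45%, 1.38 to 4.02%) and C or T in 0. Of all 82 A-to-G bases at 30 days, 57 were at the 4 positions, out of 1625 reads there (3.51%). Over all A bases compared at 30 days (22445 bases read), A-to-C was read at 58 bases and A-to-T at 13, against the 82 of A-to-G. At 180 days G was read in 0 of 63, which by the floor of 3 reads allows a share of up to 4.76%. The pooled shares mix the arms in unlike parts: miR-376c-3p gave 106 of the 1625 reads at 30 days and 17 of the 63 at 180 days. At each of the 4 positions the exact 180-day interval included the 30-day share, so a difference between the ages was not detectable at this depth. Whether editing or sequencing error gave these bases was not tested.

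**Figure D5:**
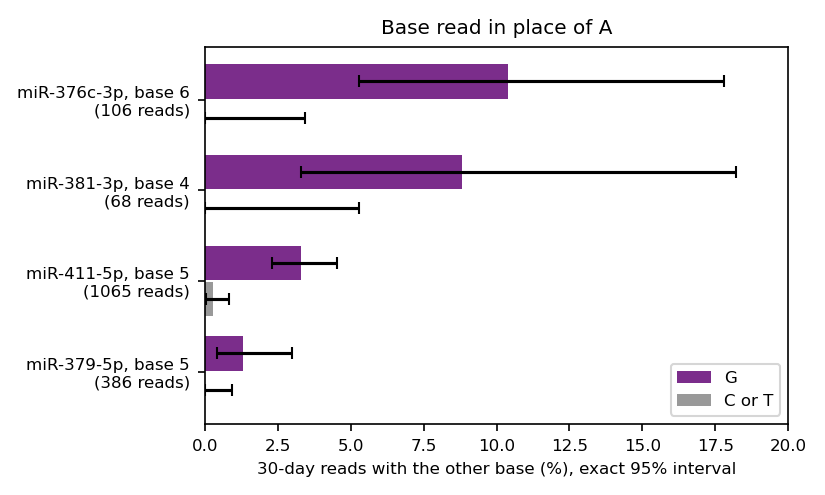
Bars give the share of 30-day reads with G (purple) or with C or T (grey) in place of A at the 4 positions, with exact 95% intervals. G reaches 10.4% in miR-376c-3p and 8.82% in miR-381-3p, while C or T was read only in miR-411-5p (3 of 1065 reads).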

How the data were processed

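Small RNA of 18 to 30 nucleotides from whole testis was sequenced on an Illumina 1G instrument after 15 cycles of PCR, per the labels' protocols. For each library the authors deposited a list of tags with raw read counts, sequence, a miRNA name of any species, alignment counts and an alignment score. Counts were used as deposited, and the score deposited by the authors was not used. Neither aligner nor miRBase release nor build is given in the sources used here.

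Read counts of all tags were summed per name, without species prefix and copy number, and per arm. For the listed miRNAs the arm of each entry was set by hand from its name, prior knowledge and sequence. Grouping these entries by sequence gave the same arms. Entries of other miRNAs were joined when they had up to 4 mismatches without a gap, at a shift of up to 3 bases. RPM used the 7525725 and 852209 miRNA-matched reads. Ratios have exact conditional (Clopper-Pearson) 95% intervals, and shares exact binomial ones. With 1 library per age no test across libraries was made. A count of 0 was bounded with 3 reads. The scripts were tested on simulated data. TMM factors came from edgeR 4.0.16 and median-of-ratios factors from DESeq2 1.42.0, used only for scaling; the rest used Python 3.11.15 and scipy 1.17.1.

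Every miRNA with a read was accounted for, arms with 20 or more reads were given values, and the 6 most read arms and every called arm were named with ratio and interval. Members and lists were chosen with earlier results of these data known. Alternatives covered the tags used, their assignment, the scaling, the minimum and the fold.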

Additional observations from a re-analysis of the deposited data

How the results depend on the processing

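No paired analysis was possible because each age has 1 library. No called result changed direction under the alternatives run. The count of arms lower (17 of 28) was 10 of 18 among perfect matches only, where the share of all arms called was not computed. Per read of the whole library it was 28 of 28, where 84.2% of all arms were lower. With a minimum of 1 read, the count higher (0 of 28) was 1 of 51, namely miR-134, against 13.9% of all arms. The median log2 ratio (−1.63) was −4.69 per read of the whole library. The region's summed ratio of 0.307 was 0.244 from tags of 2 or more reads, 0.0367 per read of the whole library, 0.159 with TMM and 0.257 with median-of-ratios scaling. The RTL1-antisense ratio of 0.214 was 0.301 from perfect matches, 0.154 from tags of 2 or more reads, 0.0256 per read of the whole library, 0.111 with TMM and 0.111 without miR-127. The cluster ratio of 0.343 became 0.281, 0.0410, 0.178 and 0.287 under tags of 2 or more reads, whole-library, TMM and median-of-ratios scaling. The ratio between the groups (0.625) was 0.880 from perfect matches and 0.325 without the most read miRNA of each group. Values under the 3 other scalings differ by the scaling factor alone; for the other settings the cause was not tested. Restricting tags to those aligned without a gap, added after seeing the data, left 17 of 28 arms lower, again with no share of all arms computed. Among perfect matches miR-299-5p (30 and 0 reads), miR-543-3p (37 and 0) and miR-382-5p (23 and 0) had no 180-day read and too few at 30 days for a call; the exact intervals of their ratios were 0 to 1.24, 0 to 0.990 and 0 to 1.64. Calls were also lost for miR-494-3p (0.225, 0.00556 to 1.32) and miR-495-3p (0.576, 0.182 to 1.40). miR-432-5p (1 and 0 reads) and miR-379-5p (1 and 1) had too few perfect reads to be compared and lost their calls as well. Depth at 180 days limits every arm: 3 reads there equal 3.52 RPM.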

Other observations

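Of 14 further miRNA names known from the region in human or mouse but outside the list described above, 7 had reads and 2 had 20 or more. miR-376d had 45 reads at 30 days (5.98 RPM) and 0 at 180 days, at least 1.70-fold lower by the floor of 3 reads and not called. Its entry differs from that of miR-376a at G20A (miR-376a base, position from the 5′ end, miR-376d base). miR-1247, which lies near DIO3, had 19 and 10 reads (2.52 and 11.7 RPM), a ratio of 4.65 (1.93 to 10.5), and was called higher, unlike any measured arm of the list.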
